A study of Mus musculus with 24 samples.

Results

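Islets in late recovery from partial pancreatectomy (PPTx) were compared between old (52 weeks) and young (8 weeks) mice. The comparison used every library titled as day 7 or day 14 after PPTx, which gave 8 of the 24 libraries in the series: 2 old and 2 young libraries at each day. The mice were male C57BL/6J with no engineered allele. About 50% of the pancreas had been removed from all mice behind these 8 libraries, and unoperated mice of the same ages served as controls elsewhere in the series. Islets were isolated with collagenase and picked by hand, and each library held islets of 1 or 2 mice. The labels' treatment text gives 2 days for every operated sample, so the day of each library rests on its title. Age was tested across the 8 libraries with the day as a block, and a gene was called at a Benjamini-Hochberg adjusted p below 0.05 in edgeR's quasi-likelihood test. Levels are CPM, read counts scaled to library size with TMM factors, and log2 fold changes are old minus young, given with their standard error (SE).

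Pancreatic islets are clusters of hormone-secreting cells in which insulin-producing beta cells predominate, beside glucagon, somatostatin and pancreatic polypeptide cells, vessels, stromal cells and resident macrophages. Removal of part of the pancreas is known to stimulate beta cell division, a capacity that declines with age in rodents. Genes of DNA synthesis and mitosis are transcribed in dividing cells, and interferon-stimulated genes are switched on by the STAT and IRF transcription factors.

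The libraries carried the markers of islets. The insulin genes Ins1 and Ins2 together took 9.66% to 11.4% of counts in old and 10.6% to 11.3% in young libraries. Ins1 (log2 0.14, SE 0.07, adjusted p = 0.164) and Ins2 (log2 -0.04, SE 0.07, adjusted p = 0.718) did not pass the test in edgeR. Total counts ran from 7689794 to 12379646 in old and from 5761164 to 6473147 in young libraries. Mapped reads lying in genes made up 58.5% and 61.4% in the old day 7 libraries and 46.9% and 48.2% in the old day 14 libraries. In the 4 young libraries this share was 38.3% to 41.1%, so the ages did not overlap. The exact permutation test, two-sided, gave p = 0.0286 for this share (adjusted p = 0.0857 over 6 library measures), the smallest p that 4 against 4 libraries allow. Age and the share of reads in genes cannot be told apart within the 8 libraries. A second fit, chosen after the data had been seen, therefore used all 24 libraries and adjusted for this share, and its values stand beside the results as the share-adjusted fit. All 8 late libraries carried the run label W0054, as did 20 of the 24 libraries. The other 4 were old libraries, 2 of them controls and the rest at day 2, so results that use controls, day 2 or all 24 libraries mix 2 run labels, whose part in them was not tested except for the difference from controls. Each of the 4 combinations of age and day also carried a collection code of its own, so code and group cannot be told apart. Amylase genes, which mark exocrine acinar cells, took 4.17% of counts in old day 7 replicate 1 and 0.0938% to 0.722% in the other old libraries, against 1.24% to 5.15% in young libraries.

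**Figure D1:**
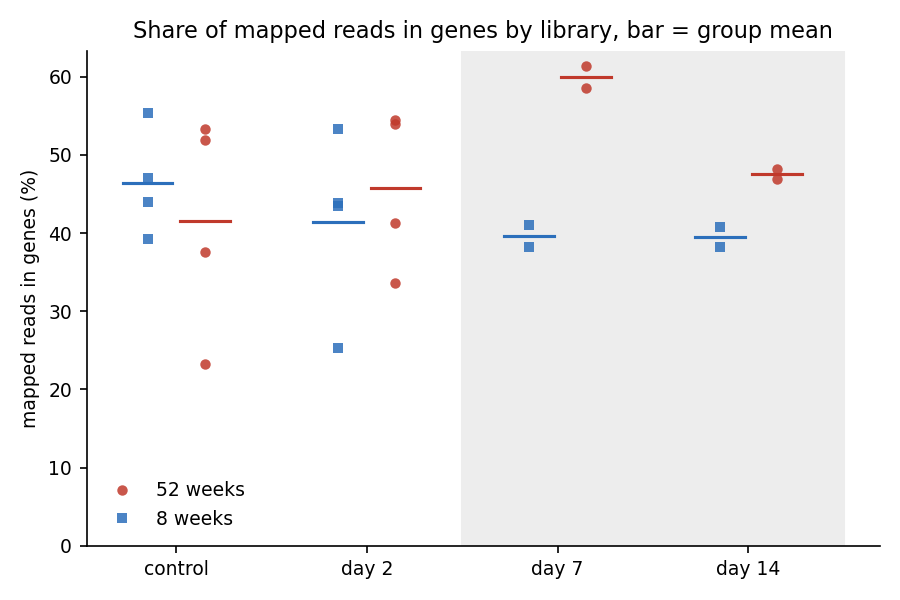
Share of mapped reads in genes (%, y axis) for each library at control, day 2, day 7 and day 14 (x axis), with old libraries as red circles, young libraries as blue squares and bars at group means. In the shaded late recovery days the 4 old libraries lie between 46.9% and 61.4% and the 4 young libraries between 38.3% and 41.1%, while the ages overlap in controls and at day 2.

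Of 14051 genes tested, 2925 (20.8%) differed with age in late recovery. Of these, 1206 (8.58% of those tested) were higher and 1719 (12.2%) were lower in old islets, and all genes had a median log2 fold change of 0.004. At least 2-fold differences were mostly falls, with 1068 genes lower and 136 higher. The share-adjusted fit called 840 of 15794 genes (5.32%), with 424 higher (2.68%) and 416 lower (2.63%), and 686 of the 2925 calls were among them. The lists named below are read against these background shares.

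**Figure D2:**
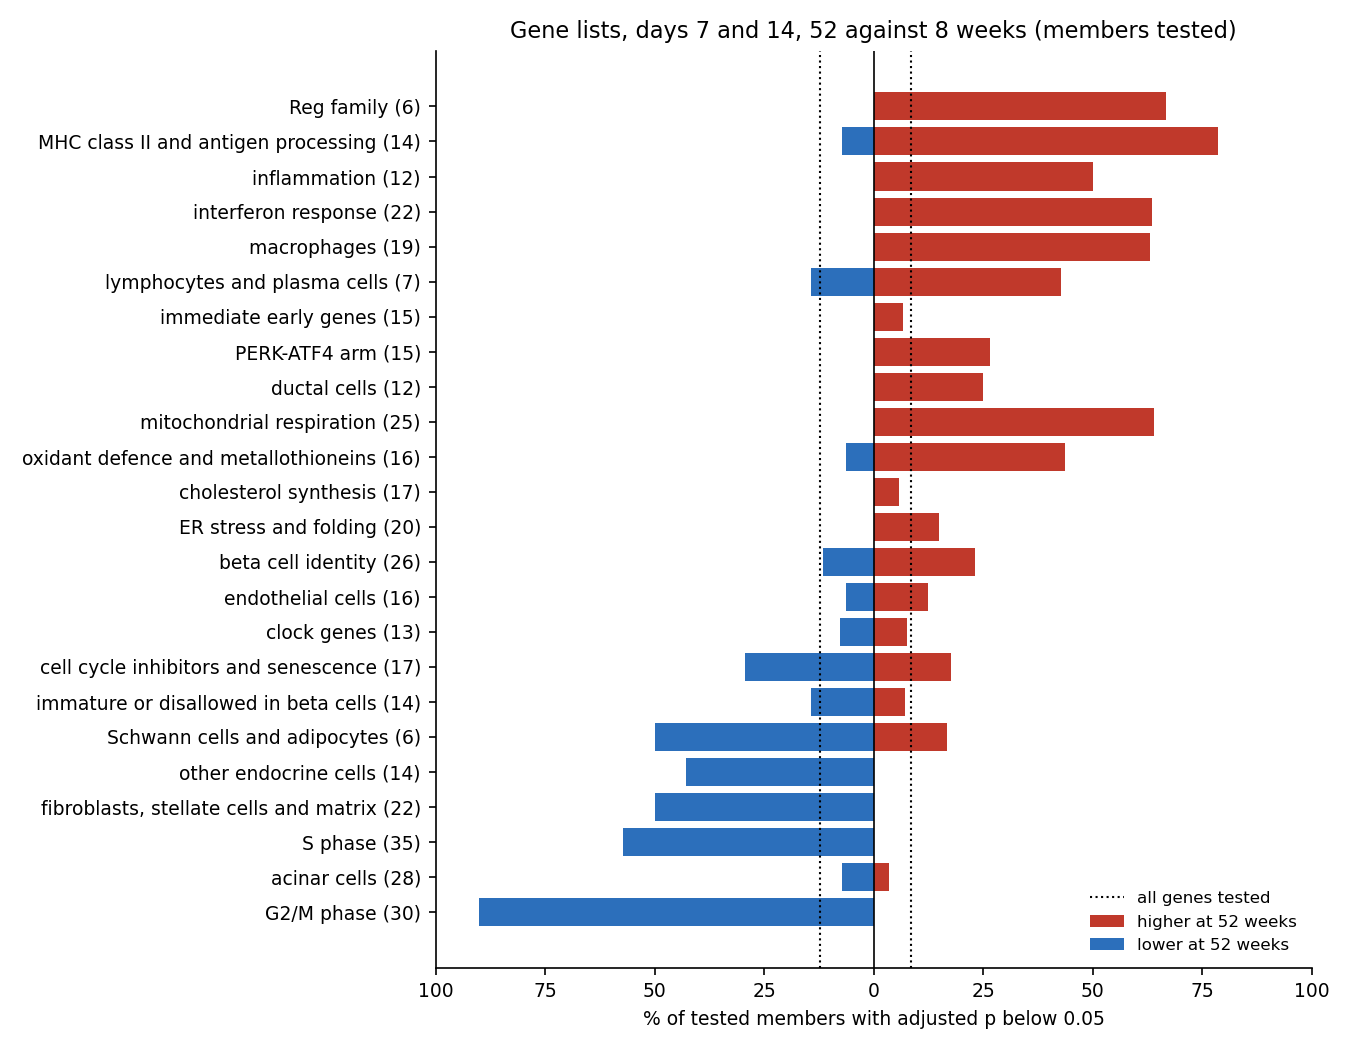
Percentage of tested members of each gene list called higher (red, to the right) or lower (blue, to the left) in old islets, with the number of members tested in parentheses and lists ordered by their median log2 fold change. Dotted lines mark all genes tested (8.58% higher, 12.2% lower). G2/M phase genes reach furthest to the left, with 27 of 30 lower, and antigen-presentation genes furthest to the right, with 11 of 14 higher.

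Genes of cell division were lower in old islets. Of 30 tested genes of the G2/M phase, which drive mitosis, 27 fell and none rose, with a median log2 fold change of -2.11 against 0.004 for all genes. Their summed level was 106, 99.9, 128 and 61.1 CPM in the old libraries (day 7 replicates 1 and 2, then day 14 replicates 1 and 2) and 558, 494, 243 and 205 CPM in the young ones. Every old library lay below every young library. In bulk RNA, fewer dividing cells and less of these transcripts per cell cannot be told apart. With the share of reads in genes adjusted for, 7 of the 30 genes were lower and the median was -1.31.

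Mki67 (chr7:142881471-142908062, minus strand, mm9), which encodes the proliferation marker Ki-67, had 6.75, 8.76, 7.97 and 3.18 CPM in old libraries and 65.9, 52.4, 27.5 and 30.0 CPM in young libraries. The young level was 6.64 times the old level (log2 -2.73, SE 0.22, adjusted p = 0.000477), and the share-adjusted difference was -2.25 (adjusted p = 0.0028). The ages did not overlap at either day. Top2a, the DNA topoisomerase of dividing cells, had 10.9, 8.20, 9.92 and 2.20 CPM in old libraries and 62.3, 63.5, 20.9 and 20.3 CPM in young libraries (log2 -2.37, SE 0.32, adjusted p = 0.00177). Young levels of Top2a were lower at day 14 than at day 7, and all old levels lay below them. Ccnb2, a mitotic cyclin, had 1.39, 1.11, 1.18 and 0.815 CPM in old and 10.2, 12.5, 3.07 and 4.70 CPM in young libraries (log2 -2.67, SE 0.32, adjusted p = 0.00105). The kinetochore gene Ndc80 fell by 2.42 on the log2 scale (adjusted p = 0.00227). Among the 12 largest falls by the naming rule, Casc5, Fam64a, Pbk, Kif18b and Ncaph also act in mitosis or chromosome condensation, with log2 fold changes from -2.73 to -2.58.

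Genes of S phase, which replicate DNA, were lower less steeply. Of 35 tested, 20 fell and none rose (median log2 -0.93), and 7 were lower in the share-adjusted fit (median -0.46). Their summed level was 619, 628, 834 and 699 CPM in old libraries and 1344, 1372, 1125 and 1000 CPM in young libraries, without overlap. E2f8, a cell cycle transcription factor, fell by 2.95 on the log2 scale (SE 0.61, adjusted p = 0.00865) on 13 counts over the old and 67 over the young libraries. The helicase gene Hells fell by 2.02, the licensing regulator Dtl by 1.91 and the methylation maintenance factor Uhrf1 by 1.64, each past the threshold. The replication clamp Pcna did not pass (log2 -0.09, SE 0.16, adjusted p = 0.727). Without young day 7 replicate 2, 11 of the 35 genes were called lower.

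The promoters of 3 of the G2/M genes are shown because CCAAT boxes and the cell cycle homology region (CHR) are the sequence elements known to recur in front of such genes. Each sequence is the 250 bases before the listed RefSeq start (build GRCm38.p6), read along the gene. Capitals mark CCAAT boxes (CCAAT or its reverse complement ATTGG) and the CHR (TTTGAA or TTCAAA), searched on both strands. Mki67 lies at chr7:135716380-135716629 on the minus strand, Ccnb2 at chr9:70421555-70421804 on the minus strand and Top2a at chr11:99024190-99024439 on the minus strand.
Mki67: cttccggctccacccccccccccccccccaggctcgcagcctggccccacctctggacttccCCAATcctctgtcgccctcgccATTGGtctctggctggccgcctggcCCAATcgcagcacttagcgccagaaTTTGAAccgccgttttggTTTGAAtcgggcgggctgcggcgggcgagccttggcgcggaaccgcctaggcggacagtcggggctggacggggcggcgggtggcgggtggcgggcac
Ccnb2: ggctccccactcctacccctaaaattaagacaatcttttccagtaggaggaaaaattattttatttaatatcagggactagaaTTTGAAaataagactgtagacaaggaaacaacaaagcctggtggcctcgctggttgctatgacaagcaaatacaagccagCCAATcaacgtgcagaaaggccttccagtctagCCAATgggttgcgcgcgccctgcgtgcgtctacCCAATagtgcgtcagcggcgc
Top2a: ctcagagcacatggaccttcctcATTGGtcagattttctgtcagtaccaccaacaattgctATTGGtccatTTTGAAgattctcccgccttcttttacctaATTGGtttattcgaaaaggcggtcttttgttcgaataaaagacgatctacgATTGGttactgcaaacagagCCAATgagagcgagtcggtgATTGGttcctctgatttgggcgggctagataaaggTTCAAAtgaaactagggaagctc

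Mki67 held 3 CCAAT boxes and 2 CHR matches, Ccnb2 held 3 and 1, and Top2a held 6 and 2. Among the 27 tested G2/M genes with a RefSeq promoter, 21 (77.8%) had a CCAAT box and 8 (29.6%) a CHR match in at least 1 listed promoter. Of all 27025 genes with a listed promoter, 37.5% had a CCAAT box and 18.3% a CHR match, counted in the same way. A letter match is a description of the sequence and does not show binding.

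Regulators of the cell cycle and senescence moved in both directions. Of 17 tested, 5 fell and 3 rose (median log2 -0.14). Igf2bp2, an RNA-binding protein of growth, had 0.858, 0.222, 0.784 and 0.734 CPM in old libraries and 8.49, 8.91, 6.44 and 5.20 CPM in young libraries, the largest fall by the naming rule (log2 -3.45, SE 0.36, adjusted p = 0.000689). Its share-adjusted difference was -3.13 (adjusted p = 8.2e-05). Ezh2, the Polycomb histone methyltransferase, had 2.04, 2.22, 2.09 and 2.28 CPM in old and 9.17, 8.76, 7.52 and 7.55 CPM in young libraries (log2 -1.94, SE 0.21, adjusted p = 0.000689). Both genes were separated by age in every library. Cdkn2c, a cyclin-dependent kinase inhibitor, fell by 0.99 on the log2 scale (adjusted p = 0.00615), and the Polycomb gene Bmi1 rose (log2 0.87, SE 0.10, adjusted p = 0.00105). Cdkn2a, which encodes the inhibitor p16 and is known to increase with age in islets, was listed at 0 counts in all 8 libraries and was not tested. The number called lower was 3 without old day 7 replicate 1.

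**Figure D3:**
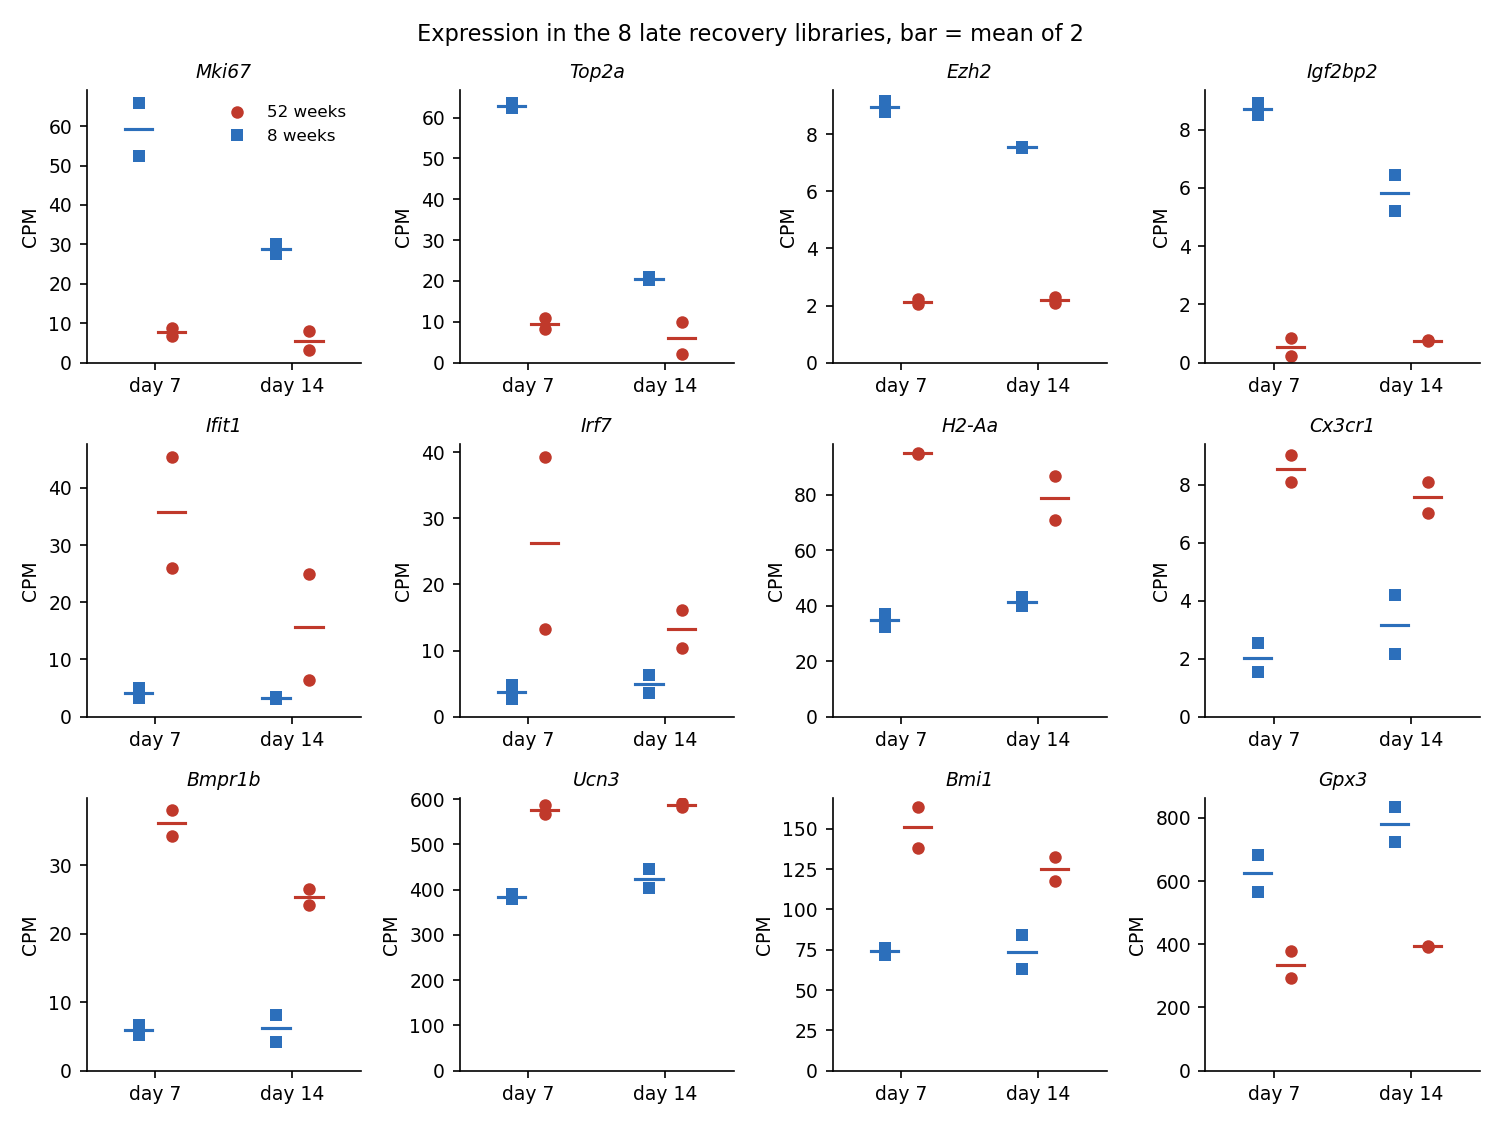
CPM (y axis, from 0) of 12 genes at days 7 and 14 (x axis) in old (red circles) and young (blue squares) libraries, with bars at the mean of 2. Mki67, Top2a, Ezh2, Igf2bp2 and Gpx3 lie lower in old than in young libraries at both days, and the other 7 genes lie higher.

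Interferon-stimulated genes were higher in old islets. Of 22 tested, 14 rose and none fell (median log2 1.03), and 11 were higher in the share-adjusted fit (median 1.09). Their summed level was 666, 419, 288 and 482 CPM in old libraries and 233 to 253 CPM in young libraries, without overlap. Old levels varied among libraries more than young levels, and old day 14 replicate 1 was the lowest of the old ones. Without young day 7 replicate 1, 7 of the members were called higher, and without old day 14 replicate 1, 18 were.

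Ifit1 (chr19:34715361-34724499, plus strand, mm9), which binds foreign RNA, had 45.5, 26.0, 6.40 and 25 CPM in old libraries and 3.07 to 5.09 CPM in young libraries. Its old level was 6.57 times the young level (log2 2.72, SE 0.41, adjusted p = 0.00236), and the share-adjusted difference was 2.50 (adjusted p = 0.00052). Its relative Ifit3 had 83.4, 43.0, 8.62 and 52.7 CPM in old and 7.88 to 10.4 CPM in young libraries (log2 2.30, SE 0.46, adjusted p = 0.00732). For Ifit3 the ages overlapped, because old day 14 replicate 1 lay among the young libraries. Irf7, the transcription factor that amplifies the interferon response, had 39.3, 13.3, 10.3 and 16.1 CPM in old libraries and 2.67 to 6.29 CPM in young libraries (log2 2.11, SE 0.41, adjusted p = 0.00665). Isg15, a ubiquitin-like modifier, rose by log2 2.52 (SE 0.80, adjusted p = 0.0437) on 30, 6, 5 and 33 counts in the old and 0 to 5 in the young libraries. Its call held in 2 of 8 fits without 1 library. Gbp10 and Gbp6, interferon-inducible GTPases, and Oasl1 were among the 12 largest rises, with log2 fold changes of 2.65, 2.06 and 2.26. Oasl1 did not pass in the share-adjusted fit (adjusted p = 0.082).

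The promoters of 3 members are shown because the interferon-stimulated response element (ISRE) is the known site of STAT and IRF binding at these genes. Capitals mark the core of this element, GAAA followed by any 2 bases and GAAA again, or the same with TTTC for the other strand, in the 250 bases before the RefSeq start (GRCm38.p6). Ifit1 lies at chr19:34640639-34640888 on the plus strand, Ifit3 at chr19:34583279-34583528 on the plus strand and Isg15 at chr4:156200819-156201068 on the minus strand.
Ifit1: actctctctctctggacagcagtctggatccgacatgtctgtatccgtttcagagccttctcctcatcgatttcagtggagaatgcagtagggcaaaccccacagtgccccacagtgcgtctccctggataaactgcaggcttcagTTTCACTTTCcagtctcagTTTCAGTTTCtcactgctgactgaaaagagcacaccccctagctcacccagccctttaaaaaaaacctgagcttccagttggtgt
Ifit3: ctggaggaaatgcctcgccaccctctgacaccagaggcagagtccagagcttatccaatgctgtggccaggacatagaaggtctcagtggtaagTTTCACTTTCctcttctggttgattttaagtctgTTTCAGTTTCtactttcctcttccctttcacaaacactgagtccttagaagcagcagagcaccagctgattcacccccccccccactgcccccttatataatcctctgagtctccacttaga
Isg15: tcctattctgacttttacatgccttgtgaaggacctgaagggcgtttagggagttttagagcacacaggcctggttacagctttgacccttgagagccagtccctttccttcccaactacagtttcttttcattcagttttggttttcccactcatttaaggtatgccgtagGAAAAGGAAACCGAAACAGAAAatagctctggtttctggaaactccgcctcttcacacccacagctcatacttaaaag

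Ifit1 and Ifit3 each held 2 matches and Isg15 held 3 that overlapped one another. Of the 17 tested interferon genes with a RefSeq promoter, 9 (52.9%) had a match in at least 1 listed promoter, against 3.46% of all 27025 genes counted in the same way.

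Antigen presentation and macrophage genes were higher as well. Of 14 tested genes of MHC class II and antigen processing, 11 rose and 1 fell (median log2 1.15), and 9 were higher in the share-adjusted fit. H2-Aa, a chain of MHC class II, had 95, 94.9, 70.8 and 86.9 CPM in old libraries and 37.2, 32.4, 43.0 and 39.8 CPM in young libraries (log2 1.17, SE 0.11, adjusted p = 0.000689). H2-Eb1 rose by the same log2 of 1.17, and Ciita, the transactivator of class II genes, by 1.70, with its call kept in 3 of 8 fits without 1 library. The class I gene H2-Q4 was the member that fell (log2 -1.18, adjusted p = 0.00227), with the call kept in 8 of 8 fits without 1 library. The fall did not pass in the share-adjusted fit (adjusted p = 0.17). Whether near-identical class I genes affected its counts, which were of uniquely mapped reads, was not tested.

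Of 19 tested macrophage markers, 12 rose and none fell (median log2 0.95), and 7 were higher in the share-adjusted fit. Their summed level was 353, 287, 220 and 218 CPM in old and 126 to 162 CPM in young libraries. None of these markers was at 0 in all 8 libraries. The chemokine receptor Cx3cr1 had 9.01, 8.09, 8.10 and 7.01 CPM in old libraries and 1.53, 2.52, 2.15 and 4.19 CPM in young libraries (log2 1.61, SE 0.28, adjusted p = 0.00406). Aif1, the protease gene Ctss and the signalling adaptor Tyrobp rose by log2 1.80, 1.26 and 1.19. The part of macrophages in the higher interferon and MHC levels was not tested. Of 25 lymphocyte and plasma cell markers 18 were not tested, and of the 7 tested, 3 rose and 1 fell. The T cell gene Cd3d fell, with 6, 3, 4 and 14 counts in old and 14, 12, 13 and 7 in young libraries. Its call held in 2 of 8 fits without 1 library. The B cell receptor gene Cd79b rose (log2 3.16, SE 0.54, adjusted p = 0.00407), and Igj, the joining chain of antibodies, had 31.4 CPM in old day 7 replicate 2 and 2.20 to 3.97 CPM in the other old libraries.

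**Figure D4:**
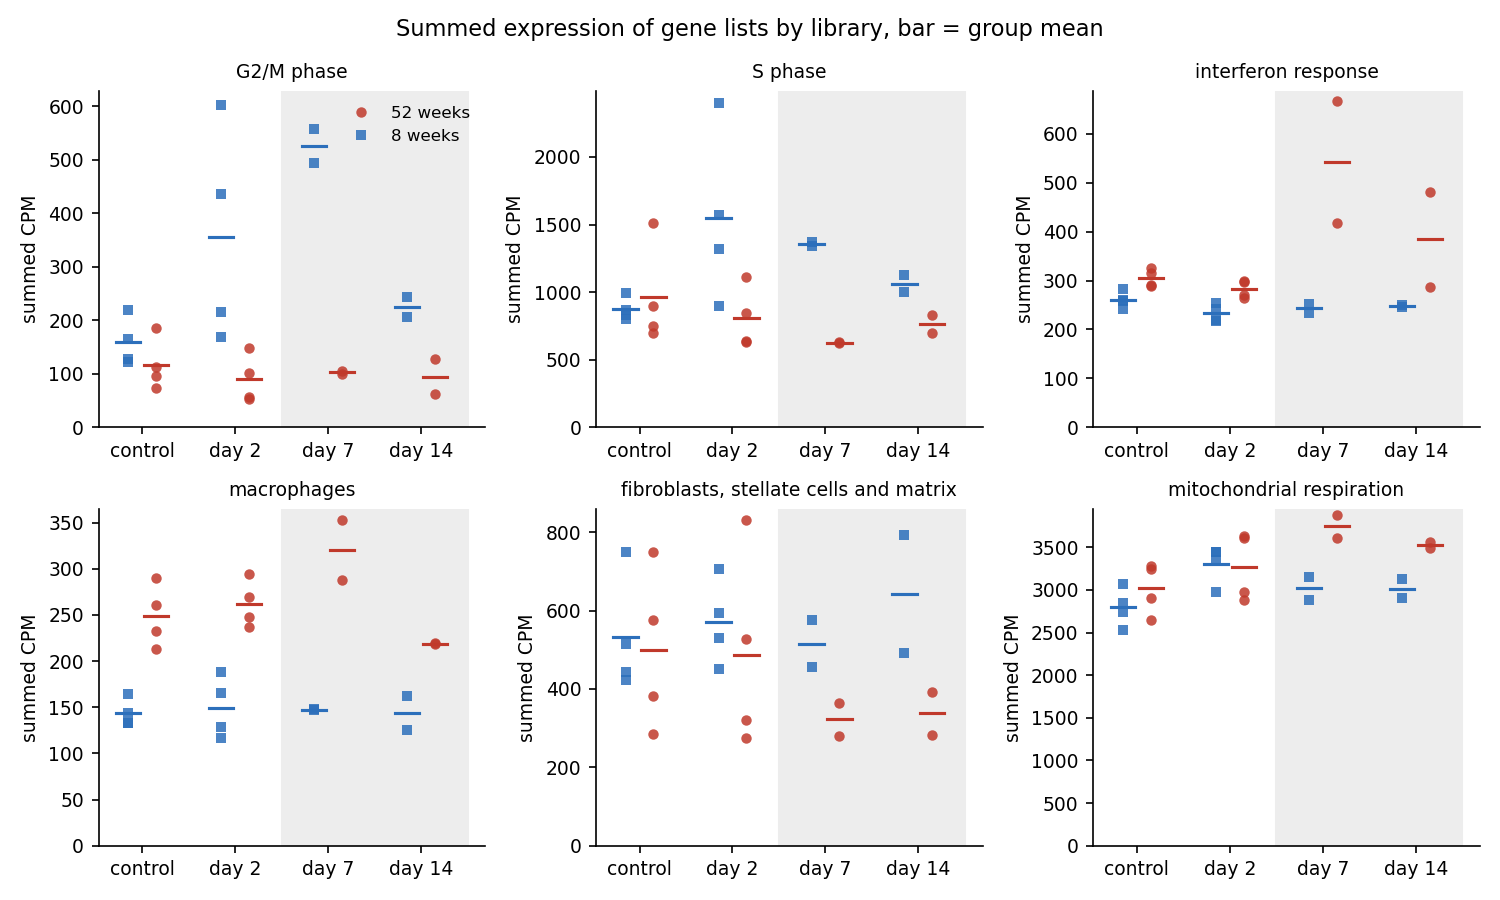
Summed CPM (y axis, from 0) of 6 gene lists in each library at control, day 2, day 7 and day 14 (x axis), with old libraries as red circles, young libraries as blue squares, bars at group means and late recovery shaded. In the shaded days G2/M phase sums are 61.1 to 128 CPM in old and 205 to 558 CPM in young libraries, and interferon sums 288 to 666 and 233 to 253 CPM.

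Of 12 tested inflammation genes, 6 rose and none fell (median log2 1.14), and 5 were higher in the share-adjusted fit. The count was 3 without old day 7 replicate 1 and 10 without old day 14 replicate 1. The interleukin gene Il1b had 5.15, 2.11, 1.96 and 1.14 CPM in old and 0.168 to 0.849 CPM in young libraries (log2 2.22, SE 0.52, adjusted p = 0.0141). The chemokine gene Cxcl10 had 12, 8.20, 0.261 and 9.13 CPM in old libraries and at most 0.503 CPM in young ones. Lcn2, a secreted iron-binding protein, had 17, 4, 0 and 23 counts in the old libraries and 0 in each young one, which over the group is at least 9.28-fold higher against a floor of 3 counts. Old day 14 replicate 1 thus equalled the young libraries, and the call held in 1 of 8 fits without 1 library. Saa3, an acute phase protein, had 33 and 26 counts in the old day 7 libraries, but 1 and 0 at day 14, against 0, 1, 0 and 0 in young libraries. Its pooled ratio per total count of 37.9 (95% interval 6.56 to 1520, counting error only) therefore rested on day 7.

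Reg family genes, secreted proteins of acinar and injured islet tissue, were high in the old day 7 libraries. Of 6 tested members, 4 passed as higher (median log2 3.20), but the median was 3.97 at day 7 and -1.88 at day 14. Reg3a had 35.7 CPM in old day 7 replicate 1, 2.55 in replicate 2, and 0.131 and 0.0815 at day 14, against 0 to 0.340 CPM in young libraries. Its ratio per total count was 75.5 (95% interval 25.6 to 368, counting error only) on 358 against 3 counts. Reg2 had 99.0 and 28.0 CPM in the old day 7 libraries and 0.392 and 0.245 CPM at day 14. Without old day 7 replicate 1, which also had the highest amylase share of the old libraries, 1 member was called higher. None passed in the share-adjusted fit by edgeR, in which none had an unadjusted p below 0.05, and DESeq2 on the 8 libraries called 2.

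Acinar markers varied widely among libraries of the same age. Of 28 tested, 2 fell and 1 rose (median log2 -1.31), a share of 10.7%, below the 20.8% of all genes. The 29 acinar markers with values, tested or not, summed to 19507 CPM in old day 7 replicate 1. Their sum was 493 to 3102 CPM in the other old libraries, against 4582 to 20246 CPM in young libraries. The number called lower was 24 without old day 7 replicate 1. The elastase gene Cela1 fell (log2 -2.35, SE 0.65, adjusted p = 0.0267), with the call kept in 4 of 8 fits without 1 library. Of 12 tested ductal markers 3 rose, led by the matrix phosphoprotein gene Spp1 (log2 1.34, adjusted p = 0.0187), and none passed without young day 7 replicate 1. None passed in the share-adjusted fit by edgeR either, with 2 at an unadjusted p below 0.05.

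Stromal genes were lower in old islets. Of 22 tested genes of fibroblasts, stellate cells and matrix, 11 fell and none rose (median log2 -0.69). The 25 members with values, tested or not, summed to 280 to 393 CPM in old and 455 to 793 CPM in young libraries. Postn, a matrix protein of remodelling tissue, had 2.57, 1.77, 3.26 and 4.40 CPM in old and 8.32, 8.46, 15 and 8.56 CPM in young libraries (log2 -1.78, SE 0.24, adjusted p = 0.00186). Col6a1, Lum and Col6a2, which encode collagen VI chains and a proteoglycan, fell by 1.25, 1.24 and 1.20 on the log2 scale, and Lum and Col6a2 each kept the call in 3 of 8 fits without 1 library. In the share-adjusted fit 2 members were lower (median -0.32), and Postn did not pass (adjusted p = 0.10). Without old day 7 replicate 2, 6 members were called lower. Sox10 and Ngfr, markers of Schwann cells, fell by 1.69 and 1.22 on the log2 scale, without passing in the share-adjusted fit (adjusted p = 0.236 and 0.273), and Pparg, a regulator of fat cells and macrophages, rose (log2 1.11, adjusted p = 0.00415). The adipocyte genes Adipoq and Cfd were at 0 in all 8 libraries. Of 16 tested endothelial genes, 2 rose and 1 fell, a share near that of all genes. Each fit without 1 library called 1 higher. The gene that fell, Cdh5, passed in 0 of these 8 fits, and the lower call without old day 7 replicate 1 was of another gene.

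Beta cell identity genes changed by small amounts. Of 26 tested, 6 rose and 3 fell (median log2 0.08), and in the share-adjusted fit 1 was higher and 3 were lower (median -0.05). Ucn3, a peptide of mature beta cells, had 567, 587, 584 and 591 CPM in old libraries and 390, 379, 404 and 445 CPM in young libraries (log2 0.50, SE 0.07, adjusted p = 0.00187), but did not pass in the share-adjusted fit (adjusted p = 0.18). Every old library lay above every young library for Ucn3. The nuclear receptor gene Esrrg rose (log2 0.54) but did not pass in the share-adjusted fit (adjusted p = 0.396). The vitamin D receptor gene Vdr fell by 0.65 on the log2 scale (adjusted p = 0.0264), and passed there too (adjusted p = 0.0038), but kept the call in 4 of 8 fits without 1 library. Of 14 tested genes that are immature or disallowed in beta cells, 1 rose and 2 fell. This share of 21.4% was near the 20.8% of all genes. Aldh1a3 rose (log2 1.12, kept in 2 of 8 fits without 1 library), and the falls were led by the neuropeptide gene Npy (log2 -1.66, adjusted p = 0.00695). None passed in the share-adjusted fit by edgeR, with 1 at an unadjusted p below 0.05. Without young day 7 replicate 2, 3 identity genes were called higher and none lower.

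Markers of the other endocrine cells were lower in old islets where they passed. Of 14 tested, 6 fell and none rose (median log2 -0.50). The 15 members with values, tested or not, summed to 14732 to 18994 CPM in old and 20337 to 29956 CPM in young libraries. Ghrl, the ghrelin gene, fell by 2.57 on the log2 scale (SE 0.51, adjusted p = 0.00741), and the alpha cell genes Slc38a5 and Ttr by 1.10 and 0.57. Sst had 382, 508, 580 and 600 CPM in old and 655 to 806 CPM in young libraries (log2 -0.49, SE 0.13, adjusted p = 0.0206). Gcg (log2 -0.62, SE 0.29, adjusted p = 0.145) and Ppy (log2 -0.32, SE 0.23, adjusted p = 0.355) did not pass. In the share-adjusted fit Ttr was the member that passed, and it kept the call in 2 of 8 fits without 1 library. The list had 2 members called without young day 7 replicate 2.

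Stress and metabolic genes showed smaller differences. Of 20 tested genes of ER stress and folding, 3 (15%) rose and none fell. Over all genes 8.58% were higher and 20.8% were called in either direction. The 3 were Dnajb9, Wfs1 and Herpud1 (log2 0.81, 0.58 and 0.47). None of the list passed in the share-adjusted fit by edgeR, with 4 at an unadjusted p below 0.05. Without old day 7 replicate 1, 7 were called. The chaperone gene Hspa5 had 2338.5 to 3470 CPM in old and 1906 to 2607 CPM in young libraries (log2 0.28, SE 0.12, adjusted p = 0.108). Of 15 tested genes of the PERK-ATF4 arm, which answers amino acid and folding stress, 4 rose and none fell. Nupr1, a stress-induced chromatin protein, had 211, 183, 83.8 and 91.5 CPM in old libraries and 35.7, 26.7, 69.1 and 26.2 CPM in young libraries (log2 1.73, SE 0.35, adjusted p = 0.00759). Asns and Phgdh rose by log2 0.61 and 0.54, and Phgdh did not pass in the share-adjusted fit (adjusted p = 0.415). Atf4 rose by log2 0.37, with 0.07 at day 7 and 0.67 at day 14. It kept the call in 3 of 8 fits without 1 library and did not pass in the share-adjusted fit (adjusted p = 0.174). Of 25 tested genes of mitochondrial respiration, 16 rose and none fell, with a median log2 of 0.29, and in the share-adjusted fit none was higher and 1 was lower. Without old day 7 replicate 2, 7 of them were called higher. Of 16 tested genes of oxidant defence, 7 rose and 1 fell, and 2 were called higher without young day 7 replicate 1. Gpx3, a secreted glutathione peroxidase, was the member that fell, with 377, 294, 391 and 396 CPM in old and 566, 683, 725 and 834 CPM in young libraries (log2 -0.96, SE 0.10, adjusted p = 0.000689; share-adjusted -0.98, adjusted p = 0.0097). Of 15 tested immediate early genes 1 passed (Btg2, log2 0.40), and of 13 clock genes 2 did, both shares below the 20.8% of all genes. Among clock genes Cry1 rose (log2 0.55) and Bhlhe41 fell by 0.34 on the log2 scale, with the call kept in 4 and 5 of 8 fits without 1 library. None of the 4 tested Y-linked genes passed by edgeR, with 1 at an unadjusted p below 0.05 and none called by DESeq2.

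The remaining largest rises were single genes. Bmpr1b, a receptor of bone morphogenetic proteins, had 38.1, 34.2, 26.5 and 24.2 CPM in old libraries and 6.62, 5.20, 8.13 and 4.19 CPM in young libraries (log2 2.30, SE 0.19, adjusted p = 0.000477), and 2.45 in the share-adjusted fit (adjusted p = 1.2e-05). Barhl1, a homeobox gene, had 2.87 to 3.67 CPM in old and 0.297 to 0.671 CPM in young libraries (log2 2.52, SE 0.37, adjusted p = 0.00227). The fucosyltransferase gene Fut1, the kinase gene Stk33 and Sidt1 rose by log2 2.26, 1.96 and 1.96. In the controls, which share no library with this comparison, the age differences of Bmpr1b, Barhl1, Fut1, Stk33 and Sidt1 were 1.95, 4.22, 2.18, 2.09 and 2.26. Those of Ifit1, Irf7, Gbp10 and Gbp6 were 0.87, 0.19, 0.56 and 0.94 in controls and 0.85, 0.90, 1.65 and 1.51 at day 2, where Gbp10 (adjusted p = 0.0468) and Gbp6 (adjusted p = 0.0245) passed. The late minus control differences of these 4 genes did not pass (adjusted p = 0.124, 0.102, 0.0698 and 0.157). The remaining falls were Speer1-ps1, Prss3, Pabpc4l and Tbx22, with log2 fold changes from -2.92 to -2.59. Speer1-ps1 was at -1.56 in the share-adjusted fit (adjusted p = 0.327). Prss3, a trypsin gene, was at -1.74 at day 7 (adjusted p = 0.127). At day 14 it had 0 counts in both old libraries against 41 and 19 in the young ones. The fitted log2 of -8.26 there is therefore not a measured size. Prss3 kept the call in 4 of 8 fits without 1 library.

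**Figure D5:**
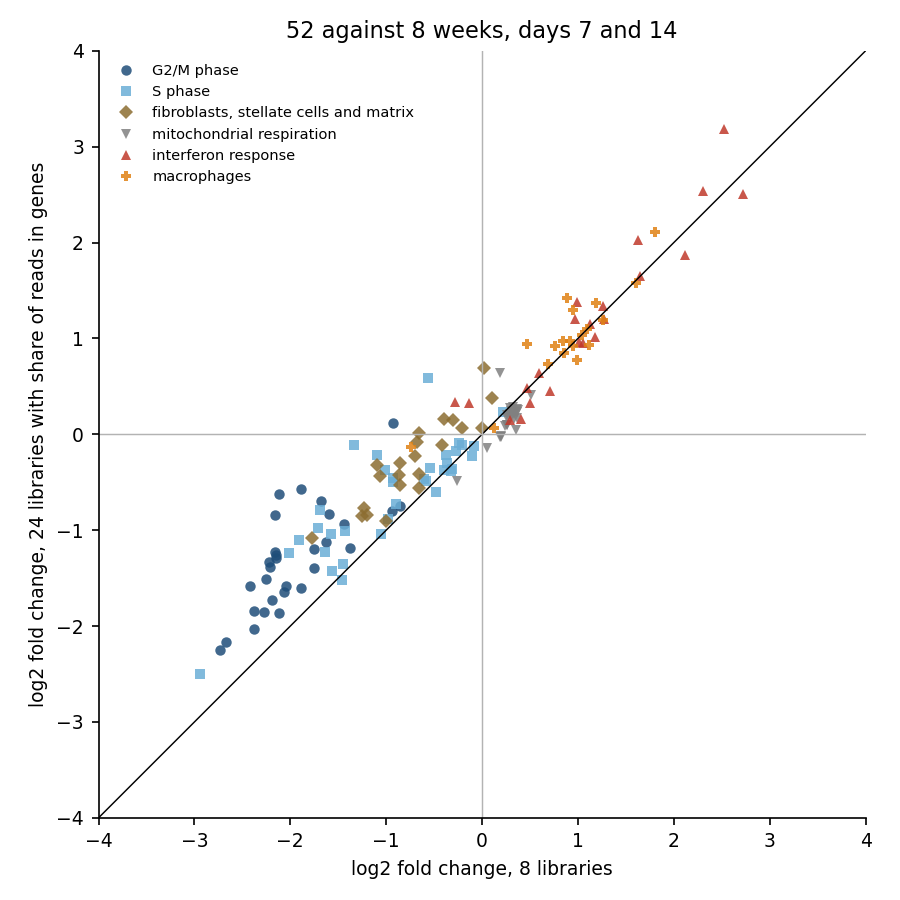
Log2 fold change, old minus young, of members of 6 lists in the fit of 8 libraries (x axis) and in the share-adjusted fit of 24 libraries (y axis), with the line of equality. Interferon and macrophage genes lie near the line (medians 1.03 and 1.09, 0.95 and 0.98), and G2/M genes lie above it, nearer to 0 (medians -2.11 and -1.31). The fits share the 8 libraries.

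Olfactory and vomeronasal receptor genes were lower in old islets where they passed. Of 1446 receptor rows, a group defined after the values were seen, 1225 did not pass the expression filter. Of the 221 tested, 139 were lower and none higher in old islets (median log2 -1.52). A row could pass the filter through the 2 libraries of 1 group, so rows with reads mainly in young libraries could enter. The part of this in the falls was not tested. Over all 1446 receptor rows, tested or not, the summed level was 1374 to 3296 CPM in old and 5265 to 6063 CPM in young libraries, without overlap. In the share-adjusted fit 45 of 489 tested rows were lower and 1 was higher (median -0.53).

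The days were also tested apart, with 2 against 2 libraries and a spread shared by the 4 groups. At day 7, 2946 genes (21%) differed with age, 8.6% higher and 12.4% lower in old islets. At day 14, 186 (1.32%) differed, 0.342% higher and 0.982% lower. Of these, 139 differed at both days in the same direction. Of 30 G2/M genes, 29 passed as lower at day 7 and 4 at day 14 (medians -2.54 and -1.44). Of 22 interferon genes, 13 passed as higher at day 7 and 1 at day 14 (medians 1.33 and 0.75). Matrix genes had medians of -0.62 and -0.73. Of 15 immediate early genes, 10 were higher at day 7 (median 0.83) and 1 was lower at day 14 (median -0.31). The count of all genes at day 14 was 5 without old day 14 replicate 2 and 10 without young day 14 replicate 1. The difference between the days passed for 69 genes (0.491%), of which 37 (0.263%) were more positive and 32 (0.228%) more negative at day 14. Egr1, an immediate early transcription factor, had 68.9 and 42.2 CPM in old and 10.4 and 15.6 CPM in young libraries at day 7, and 8.49 and 17.3 against 32.7 and 24.2 CPM at day 14. Its day 14 minus day 7 difference was log2 -3.18 (SE 0.46, adjusted p = 0.019), so old libraries lay above young ones at day 7 and below them at day 14. Junb, of the same class, and Errfi1, an inhibitor of EGF receptor signalling, differed by -2.13 and -2.20, and Car8 by -2.15. Bub1b, a mitotic checkpoint gene, and Dapl1 differed by 2.58 and 2.13, and the vomeronasal rows Vmn2r49 and Vmn2r42 by 2.12 and 2.06. Egr1, Junb and Car8 were the 3 of 15794 genes (0.019%) that passed in the share-adjusted fit.

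Whether the age difference in late recovery differed from that in unoperated islets was tested in 16 libraries, and 29 of 15014 genes (0.193%) passed, 22 (0.147%) more positive and 7 (0.0466%) more negative in late recovery. The count rested on single libraries, with 416 without old control replicate 1 and 4 without old day 7 replicate 2. It was 42 with the libraries of run label W0054 alone. Amylase genes took 9.93% to 26.8% of counts in young controls and 0.589% to 4.22% in old controls. Of 28 tested acinar markers, 18 were lower in old controls, against 0.883% of all genes. The part of acinar content in the late minus control differences was not tested. No member of the G2/M, S phase, interferon or macrophage lists passed by edgeR, with 14 of 30, 14 of 35, 9 of 22 and 3 of 19 at an unadjusted p below 0.05. DESeq2 called 5, 3, 3 and 1. The median late minus control differences of these lists were -1.26, -0.58, 0.66 and 0.10. For Mki67 the difference was -1.60 (SE 0.43, adjusted p = 0.112) and for Ifit1 1.81 (SE 0.50, adjusted p = 0.124). Fkbp5, a glucocorticoid-induced chaperone, had 139, 119, 78.7 and 74.1 CPM in old and 52.7 to 60.3 CPM in young late libraries, but 85.2 to 111 CPM in old and 130 to 189 CPM in young controls. The difference was 1.53 (SE 0.18, adjusted p = 0.00216), with the ages in opposite order. Mdm1 (1.89), Trib1 (1.34) and Usp51 (1.28) were the other large positive differences, and Fmod (-7.41), S1pr3 (-1.37), Foxp2 (-1.28) and D4Wsu53e (-1.10) the negative ones. Fmod, a matrix proteoglycan, rested on 12 counts over the old and 64 over the young late libraries, with 0 in both old day 7 libraries. Old controls had 12, 140, 61 and 147 counts of Fmod and young controls 8 to 12. The Fmod call held in 5 of 16 fits without 1 library. Mdm1, Fkbp5 and Usp51 also passed in the share-adjusted fit, in which 7 genes (0.0443%) did. Of the genes tested in both, 119 were called late and in controls, 4.37% of the late and 50.9% of the control calls, and 115 of them had the same direction. Over all 13287 genes tested in both, 56.9% had the same direction. Among late calls this share was 78.9% for those higher and 48.9% for those lower in old islets.

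The age differences at earlier stages, which share no library with days 7 and 14, are given beside these. Among controls 0.868% of genes were higher and 0.883% lower in old islets, and at day 2 5.41% and 4.56%. G2/M genes had a median of -0.52 in controls and -2.24 at day 2, where 16 were lower. S phase genes had medians of -0.16 and -1.61, with 28 lower at day 2. Interferon genes had medians of 0.29 and 0.30, with none called in controls by edgeR (6 of 19 at an unadjusted p below 0.05) and 1 higher at day 2. Macrophage markers had medians of 0.80 and 0.89, with 3 and 7 higher, and MHC genes 0.66 and 0.78, with 4 and 8 higher. Matrix genes had medians of 0.13 and -0.16, with 1 lower at day 2. Of the genes tested at both stages, 585 were called at day 2 and late, which is 20.6% of the late and 42.1% of the day 2 calls. The direction was the same for 577 of them, and for 65.6% of all genes tested at both stages. Among late calls it was the same for 79.6% of those higher and 86.2% of those lower in old islets.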

How the data were processed

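Bulk RNA-seq of whole islets was deposited as 1 file per library, and the 8 late recovery libraries were grouped by their titles. Per the file headers, the authors aligned reads with TopHat to mouse genome build mm9, and rpkmforgenes counted uniquely mapped reads per RefSeq gene. The submitters' processing notes also name CASAVA 1.8.2, Trimmomatic 0.36 and TopHat2 2.1.1, and the paper's methods name other mapping and counting tools. The deposited read counts were whole numbers without normalization, and they were used for all main tests. The deposited RPKM values, which the authors scaled by gene length and reads in genes, entered an alternative only. Each file held 22197 features. Of these, 1458 joined the names of overlapping genes and 441 had a repeated name, so their values are uncertain. Whether counting used strand is not given in the sources used here.

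Tests were run in R 4.3.3 with edgeR 4.0.16 (TMM scaling, filterByExpr, quasi-likelihood test, Benjamini-Hochberg adjustment, threshold 0.05), with limma 3.58.1 and DESeq2 1.42.0 in alternatives. The SE was derived from the log2 fold change and its F statistic. Library measures were compared by a two-sided exact permutation test. One count stood for 0.0808 to 0.174 CPM in these libraries. Labels do not tie libraries to separate mice, so p-values measure the spread between these samples, which may be technical. Chi-square tests of the 4 replicate pairs found differences beyond sampling noise in each.

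The comparison, the 25 gene lists and the naming rule were chosen with earlier results of these data known. The rule named Ins1, Ins2, Gcg, Sst, Ppy, Mki67, Hspa5 and Cdkn2a, then the 12 largest rises and 12 largest falls past the threshold with 1 unrepeated name, mean log2 CPM above 1 and ages that did not overlap within either day. It added 4 genes in each direction for the difference between days and from controls, and up to 4 members per list. Results of some single genes are not reported here. Pcna and the members of opposite direction or with 0 counts were named after their values were seen. The code was tested on simulated data. Gene positions are from GENCODE for mm9, and promoters from RefSeq for GRCm38.p6. Alternatives were RLE and upper quartile scaling, leaving out amylase rows, DESeq2, a filter of 10 counts per library or of 1 count in total, all 24 libraries, limma-trend on log2(RPKM + 1), a replicate block, the collection code as a random block, the share of reads in genes, 1 unrepeated name, a fold change of at least 2, only run label W0054 and leaving out each replicate.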

Additional observations from a re-analysis of the deposited data

Results flagged for a closer look

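In groups of 4 libraries, 6 of 68 tested values stood apart by Dixon's test, which flags about 1 in 20 by chance. Old day 7 replicate 1 had 4.17% amylase counts (next 0.722%), 35.7 CPM of Reg3a (next 2.55) and 3.75 CPM of Prss3 (next 0.222). Igj was 31.4 CPM in old day 7 replicate 2 (next 3.97), Barhl1 3.67 CPM in old day 14 replicate 2 (next 2.89) and Oasl1 1.04 CPM in young day 7 replicate 2 (next 0.509).

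Age differences that differed between day 7 and day 14 by the interaction test (log2, day 14 minus day 7) were those of Bub1b (2.58), Dapl1 (2.13), Vmn2r49 (2.12), Vmn2r42 (2.06), D4Wsu53e (1.08), Fkbp5 (-0.85), Trib1 (-2.09), Junb (-2.13), Car8 (-2.15), Errfi1 (-2.20) and Egr1 (-3.18). Age differences that differed between late recovery and controls were those of Mdm1 (1.89), Fkbp5 (1.53), Trib1 (1.34), Usp51 (1.28), Car8 (1.23), D4Wsu53e (-1.10), Foxp2 (-1.28), S1pr3 (-1.37) and Fmod (-7.41).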

How the results depend on the processing

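For age at days 7 and 14, 2925 genes were called. All 24 libraries gave 1310 (746 higher and 564 lower, against 1206 and 1719), these libraries with the share of reads in genes 840, that share as a covariate in the 8 libraries 2 and a fold change of at least 2 gave 1204. Leaving out 1 replicate gave 1468 (without young day 7 replicate 1) to 3201, with 1556 without old day 7 replicate 2 and 1647 without young day 7 replicate 2. The remaining alternatives stayed within 1.5 times. For age at day 7 (2946) the same 4 settings gave 890, 606, 54 and 1461. Leaving out 1 replicate gave 1120 (without young day 7 replicate 1) to 3053, with 1542 without old day 7 replicate 2 and 1735 without young day 7 replicate 2. For age at day 14 (186) they gave 2, 7, 1 and 93, DESeq2 gave 313, the filter of 1 count 1175 and limma-trend on RPKM 56. Leaving out 1 replicate gave 5 (old day 14 replicate 2) to 357 (old day 7 replicate 1), with 341 (old day 7 replicate 2), 123 (young day 7 replicate 1), 81 (old day 14 replicate 1) and 10 (young day 14 replicate 1). For age by day (69), all 24 libraries gave 0 and 3 with the share, DESeq2 159, the filter of 1 count 596 and limma-trend on RPKM 10. With the share in the 8 libraries, 5 were positive and 65 negative, against 37 and 32. Leaving out 1 replicate gave 6 (young day 7 replicate 1) to 122 (old day 7 replicate 2), with 11 (old day 14 replicate 1) and 30 (young day 7 or day 14 replicate 2). For age, late minus control (29), all 24 libraries gave 8 and 7 with the share, DESeq2 388, the filter of 1 count 60, limma-trend on RPKM 5, the collection code block 2 and a fold change of at least 2 gave 15. Leaving out 1 replicate gave 4 to 416, with 416 and 159 without old control replicates 1 and 2, 12 without old control replicate 3, 5 and 7 without young control replicates 3 and 4, and 4 to 15 without any 1 late library. The collection code could not be fitted as a block for the separate days, since each code is 1 group. The causes were not tested.

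The replicate number was entered as a block although same-numbered deviations correlated at 0.192 (day 7) and -0.0231 (day 14), so the numbers did not pair the libraries. The replicate block gave 2285 genes for age at days 7 and 14, 3035 for age at day 7, 355 for age at day 14, 186 for age by day and 4 for age, late minus control.

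Signs reversed with the share in the 8 libraries, at adjusted p from 0.722 up, for Ins2 (0.18), Igj (-4.19), Vdr (0.25), Ghrl (0.044), Dtl (0.033), Krt7 (-0.071), Cd3d (0.12), Lum (0.080), Ngfr (0.14), Cry1 (-0.27), Hmox1 (-0.12) and Mt2 (-0.15). Leaving out 1 replicate gave -0.058 to 0.013 for Ins2, with 0.0019 without young day 7 replicate 1. No other alternative reversed a gene named for age at days 7 and 14. Of 107 such genes, 48 lost the call with all 24 libraries and the share. With the share in the 8 libraries, 89 lost it with the sign unchanged. The 12 genes whose sign reversed there did not pass either, and of these only Ins2 had not been called before.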
